A study of Sus scrofa with 6 samples.

Results

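TNF, IL12A, and IL12B were each read from the probe that the scanner files of custom porcine Agilent arrays label with that gene symbol. These 3 genes are among the 23 genes with a symbol in the files, and their 3 probes stand among 41910 gene probes. Each of the 3 probes was printed as 5 spots, so that 15 of the 42018 gene spots of an array belong to them. They were picked with their levels on these arrays already known, so their levels are given here as a description and without a test.

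TNF encodes tumor necrosis factor, an inflammatory cytokine that is displayed at the cell surface, is released by cleavage, and signals through its receptors to NF-kB. IL12A and IL12B encode the subunits that pair into interleukin 12, the cytokine by which antigen-presenting cells drive interferon gamma production in T and NK cells. The IL12B subunit is also part of another cytokine of the same family. In other mammals, plasmacytoid DC (pDC) are known for type I interferon and TNF after sensing of nucleic acids, and conventional DC are known for interleukin 12 after stimulation.

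The RNA came from DC subsets sorted from the blood of control pigs of around 2 years of age, and no stimulus is named for any of them. pDC were sorted as CD3- CD14- CD4+ cells of intermediate CD172A. The other 2 subsets came from another staining panel, as large cells lacking surface immunoglobulin, CD4, and CD14 and bearing MHC class II, with XCR1+ DC taken by CADM1 with low CD172A and XCR1- DC as CADM1-negative cells. For the latter the deposited protocol allows high or intermediate CD172A, while the study describes these as separately sorted populations of which the CD172A-high cells were kept. Each subset has 2 arrays, 6 in all, each hybridized with Cy3-labelled amplified RNA. RNA of distinct animals was mixed where amounts were low, and the series text counts 1 pig for the CADM1-sorted DC although it has 2 arrays. The columns of the deposited table carry 4 codes of unstated meaning, which differ between the arrays of each subset. Of these, 1 code is shared by 3 arrays, pDC replicate 2, XCR1+ DC replicate 1, and XCR1- DC replicate 1. The codes of XCR1+ DC replicate 2 and XCR1- DC replicate 2 differ but have digits in common. The labels do not say whether the arrays of a subset are separate animals or pools. In RNA from sorted populations, fewer cells of a type and less RNA per cell cannot be told apart.

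No gene spot was saturated, and 54.3% to 64.1% of gene spots per array were well above background, a call that the scanner software makes for each spot. XCR1+ DC replicate 2 stood apart, with the lowest share of such spots. Its negative control spots had a mean net signal, as the software reports it, of 53.6 units, against 23.1 to 32.1 on the other 5 arrays. That value is outside the range that the software accepts. The arrays lay on 4 slides and were scanned on 3 days. The markers with a symbol were checked against the labels. TCF4, a transcription factor of pDC, was 2.82 ± 0.26 (SE) higher on the log2 scale in pDC than in XCR1+ DC (limma adjusted p = 0.00093), where 13.6% of probes tested were called higher in pDC. XCR1, the chemokine receptor in the subset's name, was not well above background on either pDC array and was at least 44.6-fold higher in XCR1+ DC, taken against the lowest level with that call on the pDC arrays (limma adjusted p = 0.0002), where 15.2% were called higher in XCR1+ DC. Of the 5 other XCR1+ DC markers listed, CADM1 (used in the sort, on both of its probes), BATF3, and ID2 were also called higher in XCR1+ DC than in pDC. The difference of pDC minus XCR1+ DC was -8.14 for BATF3 and -4.33 for ID2, and none is given for CADM1, neither of whose probes was well above background on both pDC arrays. FLT3, a cytokine receptor, averaged 0.75 in pDC, 0.82 in XCR1+ DC, and -1.63 in XCR1- DC. CLEC9A, a receptor for dead cells, was well above background on 1 array only. Its highest level was -4.58, on pDC replicate 1, and the XCR1+ DC arrays were at -6.17 and -5.96. SIRPA, which encodes CD172A and was thus part of the sort, averaged 0.27 in XCR1- DC and -2.78 in pDC and was not well above background in XCR1+ DC. CSF1R, listed as a marker of both XCR1- DC and monocytes, and the monocyte marker CD14 were highest in XCR1- DC. BATF3 and ID2 averaged 3.96 and 3.34 in XCR1- DC, below XCR1+ DC (7.79 and 6.15) and above pDC (-0.35 and 1.82). FLT3 was lowest and CD14 highest there, and both go against the DC in that label. CSF1R, being on both lists, does not tell the cell types apart. SIRPA, the other XCR1- DC marker with a symbol, was highest there but was used in the sort. BATF3 and ID2 were higher there than in pDC. The name XCR1- DC is used here only as the label gives it.

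The sequences on the array decide what these 3 readouts are, so they are shown first. A search of all gene probes for stretches of 20 shared bases found 1 further probe for each of the 3 genes, which has no gene symbol in the files and therefore is no member by the labels. The TNF probe, SS_Pos_ENSSSCG1404, is a 60-mer of 45.0% GC, and SS_S1A_ENSG232810 holds the identical 60 bases as a single spot. The IL12B probe, SS_Pos_ENSSSCG17044, is a 60-mer of 35.0% GC and has its exact copy in A_72_P232582, also 1 spot. The first 30 bases of both shared sequences are printed here from the scanner files, 5′ to 3′.
TNF: tctaaataatgctgatttggtgactaactt
IL12B: gcctagccattaaaatgctacttttaagta

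The IL12A probe, SS_Pos_ENSSSCG11730, is a 60-mer of 45.0% GC and overlaps A_72_P440491 in 56 bases, the only second probe of the 3 genes that is not an exact copy. Capitals mark the shared 56 bases in both.
SS_Pos_ENSSSCG11730: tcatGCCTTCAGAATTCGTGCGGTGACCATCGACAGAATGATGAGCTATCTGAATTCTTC
A_72_P440491: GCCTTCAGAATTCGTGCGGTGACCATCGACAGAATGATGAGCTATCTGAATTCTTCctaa

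No probe carried 20 bases of the opposite strand of a member probe. The gene identifiers inside the probe names of 2 of the 3 members, IL12A and IL12B, are those that the pig gene name table pairs with the same symbol. The identifiers in the names of the TNF probe and of its copy had no match in the tables used here. The second probe of TNF and of IL12B repeats the sequence and shows how well the spot readout repeats. Whether another transcript also binds these bases was not tested.

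TNF was the only one of the 3 genes with a signal well above background. The background-corrected signal of the TNF probe, averaged over its 5 spots, was 16822 units on pDC replicate 1 and 61910 units on pDC replicate 2. In XCR1- DC it was 708 and 622 units, and in XCR1+ DC it was 170.4 and 278 units. The pDC arrays were the brightest for TNF and the XCR1+ DC arrays the dimmest, with no overlap between any of the subsets. All 30 TNF spots of the 6 arrays were called well above background, and the dimmest of them, on XCR1+ DC replicate 1, read 162 units where the lowest gene spot with that call read 6.90.

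To set arrays side by side, levels were taken as log2 of the signal minus the 75th percentile of the array, so that a level of 0 is the brightness below which 75 percent of the gene spots lie. On this scale the TNF level was 5.97 and 8.09 in pDC, 1.10 and 1.41 in XCR1- DC, and -0.89 and 0.06 in XCR1+ DC. The means were 7.03 ± 1.5 (SD, n = 2) in pDC, 1.25 ± 0.22 (SD, n = 2) in XCR1- DC, and -0.42 ± 0.67 (SD, n = 2) in XCR1+ DC. The pDC mean thus exceeded the XCR1+ DC mean by 7.45 on the log2 scale, or 174-fold, and the XCR1- DC mean by 5.77, or 54.7-fold. The limma standard error was 0.70 for each difference. Leaving out each array in turn gave 6.39 to 8.50 against XCR1+ DC and 4.72 to 6.83 against XCR1- DC.

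**Figure D1:**
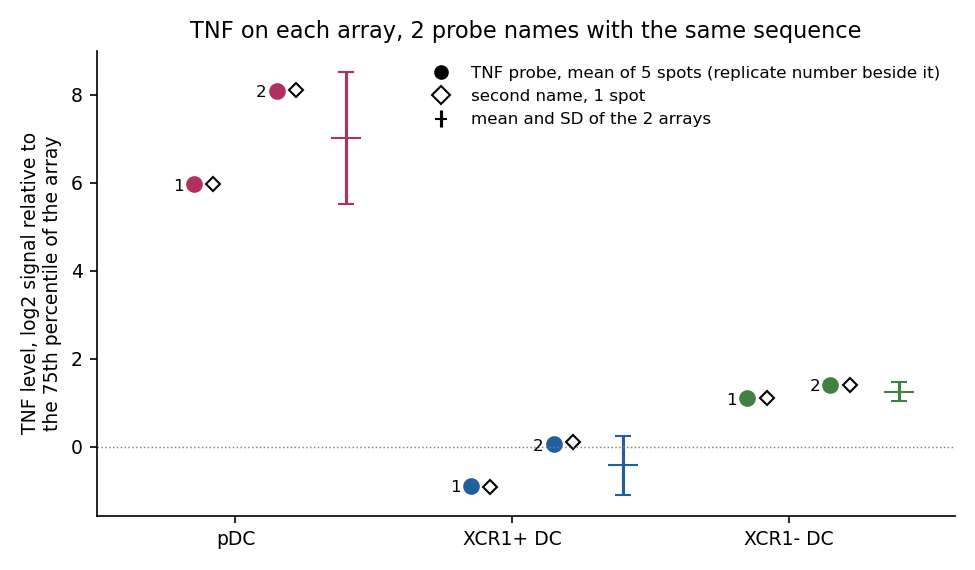
TNF level (log2 signal relative to the 75th percentile of the array) on each of the 6 arrays, with filled circles for the named probe, open diamonds for the second probe name of the same sequence, and bars for the mean and SD of the 2 arrays. The pDC arrays lie at 5.97 and 8.09, the XCR1- DC arrays at 1.10 and 1.41, and the XCR1+ DC arrays at -0.89 and 0.06, and each diamond lies beside its circle.

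A separation of the pDC arrays from the others was common among the probes. Of the 26371 probes that cleared the background call in both replicates of some subset, 23.9% had both pDC arrays above all 4 other arrays, and 5.85% had the order seen for TNF, with both pDC arrays above both XCR1- DC arrays and these above both XCR1+ DC arrays. The size of the TNF gap was less common. The dimmer pDC array exceeded the brightest of the other 4 arrays by 4.56 on the log2 scale, or 23.6-fold, and 91 of the 41901 probes used, TNF included, had a gap at least as large, which is 0.217%. This count changed with the processing, to 28 probes after normexp with its offset and to 54 in the deposited values. By the difference of means, 21 of the 26371 probes, again with TNF, exceeded XCR1+ DC in pDC by as much as TNF did, and 180 did so against XCR1- DC. The second TNF probe is also among the probes counted.

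**Figure D2:**
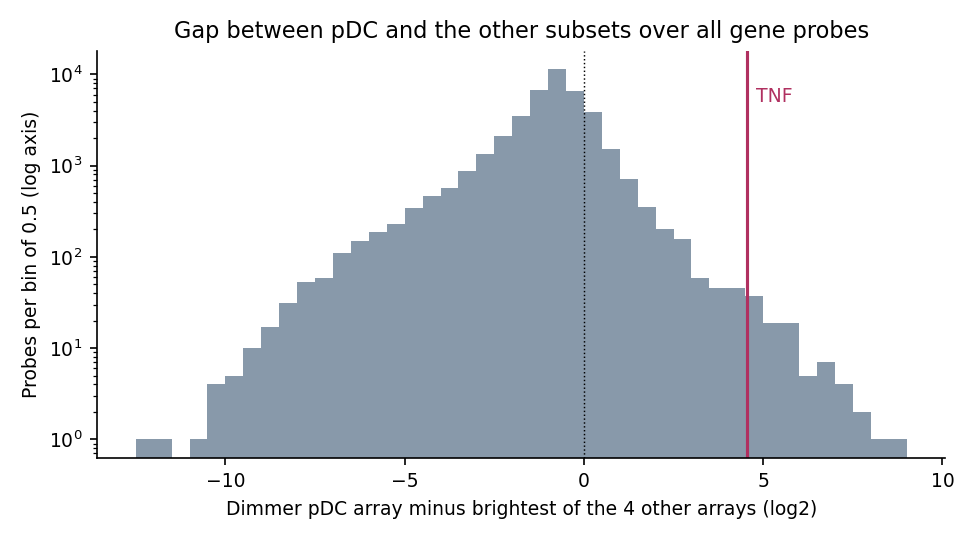
Histogram of the gap between the dimmer pDC array and the brightest of the 4 other arrays (log2, horizontal axis) over the 41901 gene probes (number per bin of 0.5, log axis), with TNF marked by the vertical line. TNF lies at 4.56 in the right tail, which 91 probes reach with the processing used here, against 28 with normexp and 54 in the deposited values.

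The 2 pDC arrays differed widely from each other in TNF. Their levels were 2.12 apart on the log2 scale, or 4.34-fold, where the median over the 23861 probes with the background call in both pDC replicates was 0.45, and 1.36% of these probes had a gap as large. The 596 probes within 1 log2 unit of the TNF level in pDC had a median gap of 0.48, and 0.503% of them had a gap as large. Both pDC shares count TNF itself and the second TNF probe, whose gap in pDC was 2.13. In XCR1+ DC the TNF levels were 0.95 apart, or 1.93-fold, and 5.30% of the probes bright on both arrays had as large a gap, whereas in XCR1- DC they were 0.31 apart and 36.0% had. The spread between the arrays of a subset was thus widest for TNF in pDC, and each single pair of a pDC array and an XCR1+ or XCR1- DC array still differed by more than that spread, from 4.56 for pDC replicate 1 over XCR1- DC replicate 2 to 8.98 for pDC replicate 2 over XCR1+ DC replicate 1.

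Spot noise was far below the difference between the pDC arrays. The 5 TNF spots of an array had a coefficient of variation between 1.58% and 5.98%. On pDC replicate 1 they ran from 15728 to 17605 units and on pDC replicate 2 from 60910 to 63306 units, with no overlap. The second TNF probe read 17004 and 63324 units on these arrays, and its level differed from that of the named probe by 0.02 and 0.03. Over the 192 pairs of probe names with a single sequence, the median difference on pDC replicate 1 was 0.06. Across the 6 arrays the 2 TNF probes differed by at most 0.05, on XCR1+ DC replicate 2.

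The lower end of the TNF order is less clear. XCR1- DC exceeded XCR1+ DC in mean TNF level by 1.67 on the log2 scale, or 3.19-fold, with the same standard error of 0.70. The nearest arrays, XCR1- DC replicate 1 and XCR1+ DC replicate 2, were 1.04 apart, close to the 0.95 between the 2 XCR1+ DC arrays, and the latter of these arrays is the one with the raised negative controls. Of the probes tested, 6.28% were higher in XCR1- DC by at least as much, and 31.5% had both XCR1- DC arrays above both XCR1+ DC arrays. Without XCR1+ DC replicate 2 the difference was 2.14, and without XCR1+ DC replicate 1 it was 1.20.

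Monocytes also make TNF and bear CD172A, and 2 of the 6 monocyte and macrophage markers listed for this work carry a symbol. CD14, the lipopolysaccharide co-receptor, was at 1.90 and 3.26 in XCR1- DC, at -2.47 and -2.03 in XCR1+ DC, and at -0.73 and -2.66 in pDC. CSF1R, the receptor of the macrophage growth factor, was at 3.68 and 3.49 in XCR1- DC, at -3.32 and -3.25 in XCR1+ DC, and at -2.95 and -4.48 in pDC. The summed signal of both markers, relative to the 75th percentile, was 16.6 to 20.8 in XCR1- DC, 0.281 to 0.35 in XCR1+ DC, and 0.204 to 0.731 in pDC. Both were thus highest in XCR1- DC, where TNF was second, and within pDC both were higher on replicate 1, the array with less TNF. The sorts of all 3 subsets left out cells with surface CD14, and whether the XCR1- DC themselves or other cells among them carried these transcripts, and their part in the TNF levels, was not tested. Markers of B cells, T cells, NK cells, and granulocytes carry no symbol in the files.

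Slides and scan days allowed comparisons within a batch for some pairs. Slide 1 held pDC replicate 1 and XCR1- DC replicate 1, and there TNF was 4.87 higher in pDC. Slide 2 held pDC replicate 2 and XCR1+ DC replicate 1, and there it was 8.98 higher in pDC. Both pDC arrays and replicate 1 of the other subsets were scanned on the first day, and within that day TNF was 7.92 higher in pDC than in XCR1+ DC and 5.93 higher than in XCR1- DC, and the difference of XCR1+ DC minus XCR1- DC was -1.99. Each of the other slides and days held 1 array. Within the 3 arrays that share a column code, TNF was 8.98 higher in pDC than in XCR1+ DC and 6.99 higher than in XCR1- DC.

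**Figure D3:**
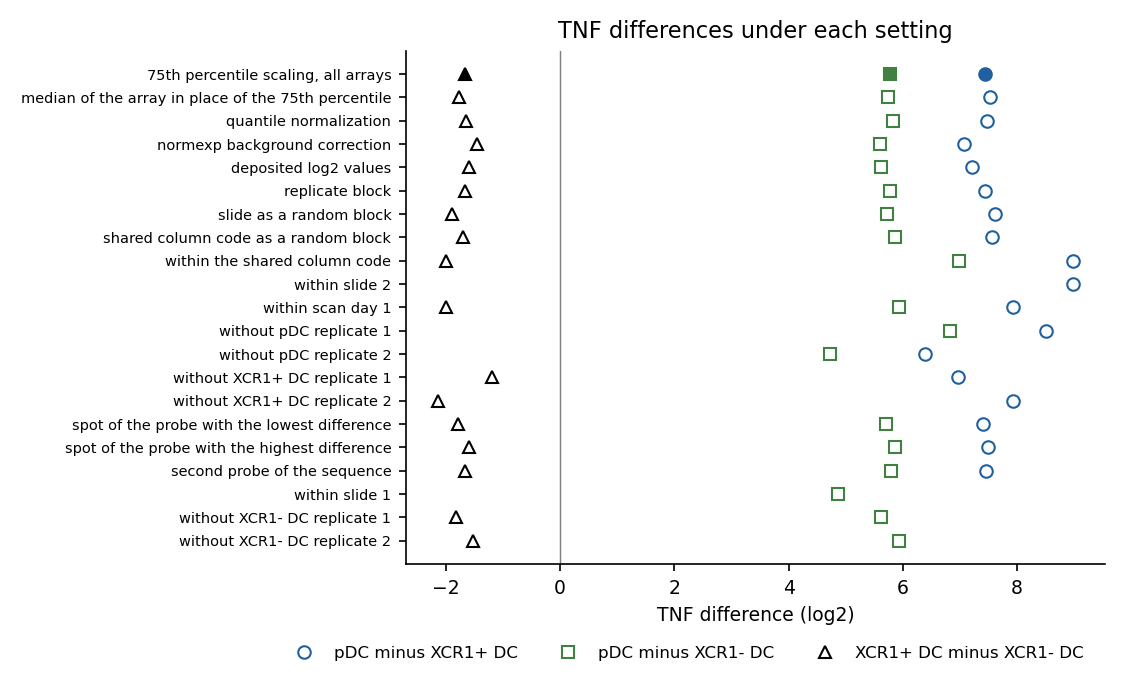
TNF differences (log2, horizontal axis) between the subsets as reported (filled symbols, top line) and under each other scaling, background correction, block, batch, omitted array, spot, or probe (open symbols). The pDC differences stay at or above 6.39 against XCR1+ DC and 4.72 against XCR1- DC, and the difference of XCR1+ DC minus XCR1- DC runs from -2.14 to -1.20.

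By brightness among all probes of an array, which depends on the oligo as well as on the transcript, TNF ranked 900 and 353 from the top of 41901 probes on the pDC arrays, so that 97.9% and 99.2% of probes were dimmer. It ranked 7623 and 7027 in XCR1- DC and 12997 and 10277 in XCR1+ DC. TNF in XCR1+ DC was thus brighter than 69.0% and 75.5% of probes, and in XCR1- DC than 81.8% and 83.2%.

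IL12A was not well above background on any array. None of its 30 spots had that call. The mean signal of its 5 spots was 3.53 and 3.54 units in pDC, 2.31 and 5.80 units in XCR1+ DC, and 1.87 and 2.23 units in XCR1- DC. The lowest gene spot with the call read between 6.90 and 14.8 units depending on the array, and all of these means lie below the value of their own array. The brightest IL12A spot, 13.5 units on XCR1+ DC replicate 2, stayed below the 14.8 units of the array with the raised negative controls, and its 4 companions read 3.59 to 4.25 units. The shifted second probe, A_72_P440491, read 6.28 and 3.79 units in pDC, 4.25 and 3.02 units in XCR1+ DC, and 1.86 and 1.55 units in XCR1- DC, again without the call on any array.

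IL12B was not well above background as a probe on any array either. Its mean signal was 2.29 and 1.88 units in pDC, 4.95 and 8.34 units in XCR1+ DC, and 1.85 and 1.82 units in XCR1- DC. Of its 30 spots, 1 had the call, with 11.8 units on XCR1+ DC replicate 1, and the same spot has an outlier flag on that array. The other 4 spots there read 1.80 to 4.16 units, and the exact copy of the probe read 6.65 units, under the 6.90 units of the lowest spot with the call. On XCR1+ DC replicate 2 the 5 spots read 4.16 to 12.1 units and the copy 10.0 units, all under the 14.8 units that mark the lowest such spot there. The XCR1+ DC arrays thus held the highest IL12B readings on both probes, at signals that the software does not separate from background, and no fold is given.

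**Figure D4:**
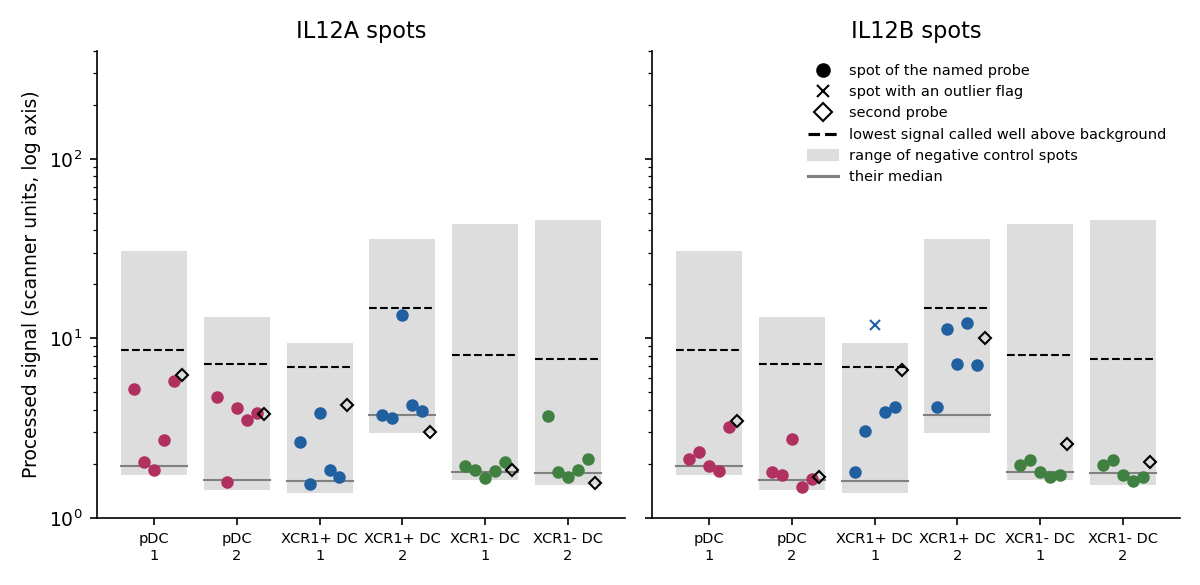
Background-corrected signal (scanner units, log axis) of the 5 spots of IL12A (left) and IL12B (right) on each array, with the second probe as open diamonds, the range of 153 negative control spots as grey boxes with their median, and the lowest gene spot called well above background as a dashed line. The spots lie under the dashed line but for 1 IL12B spot with an outlier flag, at 11.8 units on XCR1+ DC replicate 1.

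Negative control spots, which match no transcript, give the floor of these readings. Their median was 1.60 to 1.95 units on 5 arrays and 3.73 units on XCR1+ DC replicate 2. The highest of the 153 negative control spots of an array read 9.40 to 45.8 units. The IL12A mean lay above 61.4% to 99.3% of the negative control spots of its array and the IL12B mean above 55.6% to 99.3%, the latter with the outlier spot included. These values set a mean of 5 spots against single control spots. The second probe, a single spot, lay above 5.23% to 99.3% of them for IL12A and 60.8% to 99.3% for IL12B. By rank, 12.1% to 30.6% of probes were dimmer than IL12A and 11.7% to 35.8% were dimmer than IL12B. A low abundance of the IL12 transcripts and a weak response of these oligos cannot be told apart on these arrays, so the data bound the signal and not the expression.

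The spots of the dim probes also disagreed more among themselves than those of TNF. The coefficient of variation between the 5 spots ran from 7.58% to 74.6% for IL12A and from 9.45% to 80.0% for IL12B. As log2 differences, which at this signal are not a measure of the transcripts, pDC minus XCR1+ DC in IL12A ran from -1.16 to 1.11 over the settings tried, with both signs. In XCR1- DC, where the readings sat nearest to the negative controls, IL12A was at a level of -7.47 and -6.78 and IL12B at -7.47 and -7.00.

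Of 39 other genes listed around TNF and IL12, among them their receptors, NF-kB members, further cytokines, and nucleic acid sensors, only UNC93B1 carries a symbol. UNC93B1 carries the endosomal Toll-like receptors to their compartment. Its level was 3.13 and 3.35 in pDC, 2.32 and 1.92 in XCR1- DC, and 1.13 and 1.10 in XCR1+ DC, in the same order of subsets as TNF. It was 2.13 ± 0.25 (SE) higher in pDC than in XCR1+ DC (limma adjusted p = 0.0023). It was 1.13 ± 0.25 (SE) higher in pDC than in XCR1- DC (limma adjusted p = 0.018), where 15.7% were called higher in pDC. Without XCR1- DC replicate 1 this difference was 1.33 (limma adjusted p = 0.055) and without replicate 2 it was 0.93 (limma adjusted p = 0.13). The difference of XCR1+ DC minus XCR1- DC was -0.998 ± 0.25 (SE) (limma adjusted p = 0.046), where 8.29% were called higher in XCR1- DC. This call was lost on leaving out any 1 of the 4 XCR1+ and XCR1- DC arrays, with differences of -1.20 to -0.80. It was also lost with the replicate number as a block (limma adjusted p = 0.066) and with no filter on dim probes (limma adjusted p = 0.14). With no filter, the call for pDC minus XCR1- DC was lost too (limma adjusted p = 0.065).

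Likeness to TNF was taken as Pearson's r over the 6 arrays, which are 2 arrays for each of 3 subsets, so that it mostly reads pDC against the rest. Among the probes with a symbol, TCF4 at 0.94, UNC93B1 at 0.94, and STRA8 at 0.91 were the 3 most like TNF. STRA8, a germ cell gene whose probe the files mark as negative, was well above background on 1 array only. TCF4 differed from TNF in the tightness of its pDC arrays, which were at 7.21 and 6.96. Among the 20786 other probes well above background on all 6 arrays, the second TNF probe came first with an r of 1.00, and the next were A_72_P593749 at 0.999 and A_72_P596979 at 0.998, for which the files give no gene. A_72_P593749 was at 3.35 and 4.07 in pDC, 1.38 and 1.40 in XCR1- DC, and 0.47 and 0.79 in XCR1+ DC. For IL12A and IL12B, which like STRA8 were dim, r with TNF was 0.41 and -0.36, and no search for probes like them was made, since neither was well above background.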

How the data were processed

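Each of 6 samples was hybridized to a 1-colour (Cy3) array. Per the file headers, the authors extracted spots with Agilent Feature Extraction 10.7.3.1, protocol GE1_107_Sep09, and deposited the linear intensity of each spot, raw and background-corrected. They also deposited a table of normalized log2 values for 11 arrays, with its scaling not given in the sources used here. Its 6 columns for these arrays served as an alternative, and 5 columns of other subsets were not used. The deposited log2 values correlated with log2 processed intensities at 0.984 to 0.989.

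From the processed intensities, log2 was taken and the 75th percentile over the gene spots of the array subtracted, without the 1417 control spots and 19 gene spots flagged as outliers on some array. Spots of a probe were averaged. IL12B thus had 4 spots in its level. All 5 are given in the text, and signal means include all 5. A linear model with limma 3.58.1 (R 4.3.3) took 1 mean per subset over 6 arrays on 26371 of 41901 probes, those with a share of spots above 0.5 called well above background in both replicates of some subset, with Benjamini-Hochberg adjustment at 0.05 and 3 residual degrees of freedom. The fit was tested on simulated data, with no outcome given here. The number of arrays limits the precision, and p-values measure only the spread between these arrays. Named genes were the members, listed pathway genes and markers with a symbol, and the 3 probes with a symbol most like TNF. Members and lists were chosen with earlier results of these data known. Alternatives were median scaling, quantile normalization, normexp with an offset of 50, the deposited values, no filter, a trended prior, only the arrays of both subsets, blocks for replicate and slide, values within slides and days, single spots, and leaving out each array. The second probe of each sequence and the code that 3 columns share were added after values were seen. Python 3.11.15 was used for the rest. No genome was used, so no coordinates are given.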

Additional observations from a re-analysis of the deposited data

How the results depend on the processing

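The TNF differences kept their sign under every alternative run, 17 for pDC minus XCR1+ DC, 17 for pDC minus XCR1- DC, and 16 for XCR1+ DC minus XCR1- DC. The TNF levels of the subsets did not overlap, so leaving out an array or staying within a batch or code could not change the sign. The replicate block returned the same differences as the fit without it. Leaving out each array in turn gave 6.39 to 8.50, 4.72 to 6.83, and -2.14 to -1.20, and among the other settings the value within slide 2, 8.98 for pDC minus XCR1+ DC, which is also the value within the shared column code, moved by more than 1 SD of the pDC arrays (1.5). Each value within a slide rests on 1 array per subset. The number of probes with a gap as large as that of TNF fell from 91 to 28 with normexp and to 54 with the deposited values.

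Called probes numbered 7597 for pDC and XCR1+ DC, 8615 for pDC and XCR1- DC, and 4239 for XCR1+ DC and XCR1- DC. With no filter on dim probes they numbered 4371, 5830, and 2335. Leaving out each array gave 3967 to 8979, 4236 to 10383, and 1476 to 6129, where a lone array of a subset was assumed to vary like the other subsets. With the replicate number as a block they numbered 7541, 8491, and 4095, and deviations from the subset means of same-numbered arrays correlated at 0.04, 0.09, and 0.27, so the numbers were not taken as pairs. The column codes cross these numbers for pDC. Between XCR1+ and XCR1- DC the codes, shared or with digits in common, follow the numbers, and the correlation there was 0.27. With the shared code as a random block, chosen after seeing the data, called probes numbered 8142, 9068, and 4575. The TNF differences under that block were 7.56, 5.87, and -1.70. Counts within a slide or scan day were not run, since no such batch leaves replicates of both subsets.

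UNC93B1 lost its call with no filter in pDC minus XCR1- DC (1.13, adjusted p = 0.065) and in XCR1+ DC minus XCR1- DC (-0.998, adjusted p = 0.14), and with the replicate block in the latter (-0.998, adjusted p = 0.066). Leaving out each array gave 0.93 to 1.33 for pDC minus XCR1- DC, with adjusted p up to 0.13, the call being lost without either XCR1- DC array, and -1.20 to -0.80 for XCR1+ DC minus XCR1- DC. The cause was not tested. For IL12A and IL12B the signal over background is the limit, and their differences took both signs across settings except in IL12A for pDC minus XCR1- DC and in IL12B for XCR1+ DC minus XCR1- DC.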
